A study of Mus musculus with 16 samples.

Results

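The question examined here was whether deletion of p38α changed gene expression in microglia differently in a mouse model of Alzheimer's disease than in mice without the disease transgenes. It was asked of each gene as a difference of differences on the log2(CPM + 0.5) scale, where CPM is a gene's count scaled to the library's total, as deposited. The difference of AD p38KO minus AD p38+/+ mice was taken first, and the difference of WT p38KO minus WT p38+/+ mice was subtracted from it. A negative value therefore means that the effect of p38KO was lower in AD than in WT mice, and a positive value that it was higher. All 16 libraries entered, 4 from each group, and 13912 of the 20267 genes in the deposited table were tested, the genes that reached 1 CPM in 4 or more libraries.

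AD p38KO mice carried APPswe/PS1dE9, p38fl/fl and 1 copy of Cx3cr1-creERT2. AD p38+/+ mice carried APPswe/PS1dE9 and p38fl/fl without Cre. WT p38KO mice carried p38fl/fl and 1 copy of Cx3cr1-creERT2 without APPswe/PS1dE9, and WT p38+/+ mice carried p38fl/fl alone. The floxed allele was thus shared by all 4 groups, as were the tamoxifen diet, begun at 5 months of age and given for 4 weeks, the C57BL/6J background and the age of 11 months at collection. About 10000 brain cells positive for CD11b and P2ry12 were sorted from each mouse. Cre sits in the Cx3cr1 gene, so both p38KO groups also had 1 copy of Cx3cr1 fewer than their controls, and an effect of that loss cannot be told apart from an effect of p38α.

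p38α, encoded by Mapk14, is a stress-activated kinase that is switched on by the kinases Map2k3 and Map2k6 and passes the signal to Mapkapk2 and to transcription factors. In macrophages and microglia it is best known for driving the production of inflammatory cytokines. Near amyloid plaques, microglia lower their homeostatic genes and turn on a disease-associated program that includes Cst7, Axl and Apoe, part of which depends on the receptor Trem2. A factorial design with both genotypes allows the question of whether that program, or any other, is set differently once p38α is gone.

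No gene was called for the difference of differences by limma (0 of 13912 tested, 0%, adjusted p under 0.05). The smallest adjusted p was 0.238. At an unadjusted p under 0.05 there were 546 genes (3.92%), of which 204 (1.47%) had a positive and 342 (2.46%) a negative difference of differences. Under quantile normalization 267 genes were negative and 287 positive at that p, and in the 11 libraries labelled male 196 were negative and 211 positive. Without AD p38KO mice 1 and 4, whose libraries stood apart, 633 genes were under 0.05, and 260 of these were among the 546.

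The estimates were narrow for genes with many reads and wide for the rest. The median estimate over all genes was -0.06, the SD over genes was 0.51, and the median standard error of a gene was 0.36. For 74.4% of the 8674 genes with a mean of at least 10 CPM the 95% interval lay within 1 log2 unit of 0, so that a larger difference lay outside the interval. For the 5238 genes below that mean the same held for only 6.97%. CPM is not divided by gene length, so these levels rank genes by reads and not by molecules.

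**Figure D1:**
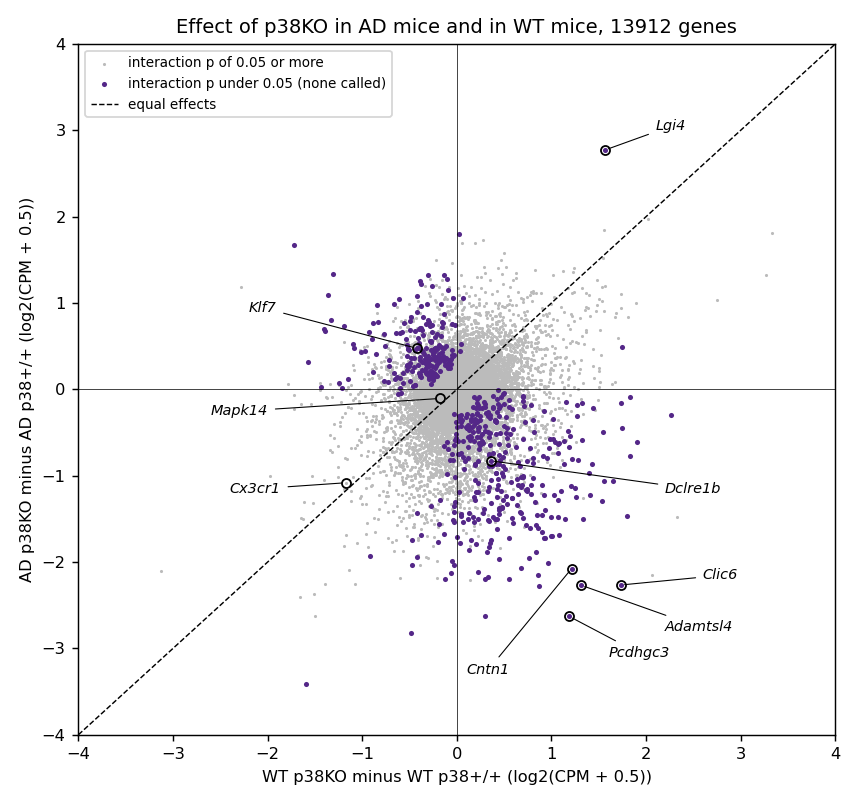
Effect of p38KO in AD mice (vertical axis) and in WT mice (horizontal axis), each on the log2(CPM + 0.5) scale, for 13912 genes. Points on the dashed line have equal effects. Cx3cr1 and Mapk14 lie on it within their errors. The 546 purple genes are those with an unadjusted p under 0.05, and their distance from the line is what selected them.

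Across all genes tested, the p38KO effect had opposite signs in AD and WT mice in 46.2%, and AD p38KO was the group whose mean lay farthest from the other groups in 35.4%. Across genes, the effects in AD and in WT mice had a Pearson r of 0.125 and a Spearman rho of 0.116, and r was 0.257 for genes with a mean of at least 10 CPM. These are correlations across genes, which are not independent replicates. The p-values measure the spread between these mice, 4 in each group.

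The libraries of the AD p38KO mice differed from the others in how many genes they held. They had 15485 to 16852 genes above 0, against 17230 to 18054 in AD p38+/+, 17443 to 17671 in WT p38KO and 16987 to 17942 in WT p38+/+ mice. Of the 13912 genes tested, 283 to 980 were listed at 0 in an AD p38KO library, against 51 to 187 in AD p38+/+, 130 to 157 in WT p38KO and 80 to 260 in WT p38+/+ libraries. Depth was inferred by taking the most frequent small CPM value of a library as 1 read. On that reading 1 CPM stood for 12.6 to 14.8 reads in AD p38KO and 12.3 to 16.4 reads over all libraries. By the same reading 3 reads came to 0.183 to 0.244 CPM. The part of depth in the genes at 0 was not tested. AD p38KO mice 1 and 4 had the most genes at 0 (644 and 980) and lay farthest from the other libraries on the first 2 principal components. Results were therefore also computed without these 2 libraries, and the part of the empty genes in them was otherwise not tested. Labelled sex was also uneven, with 1 female in AD p38KO, 1 in AD p38+/+, 2 in WT p38KO and 1 in WT p38+/+ mice. The male libraries alone hold 2 WT p38KO mice, and they leave out AD p38KO mouse 1, labelled female. A change in them therefore cannot be told apart from the loss of single libraries.

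**Figure D2:**
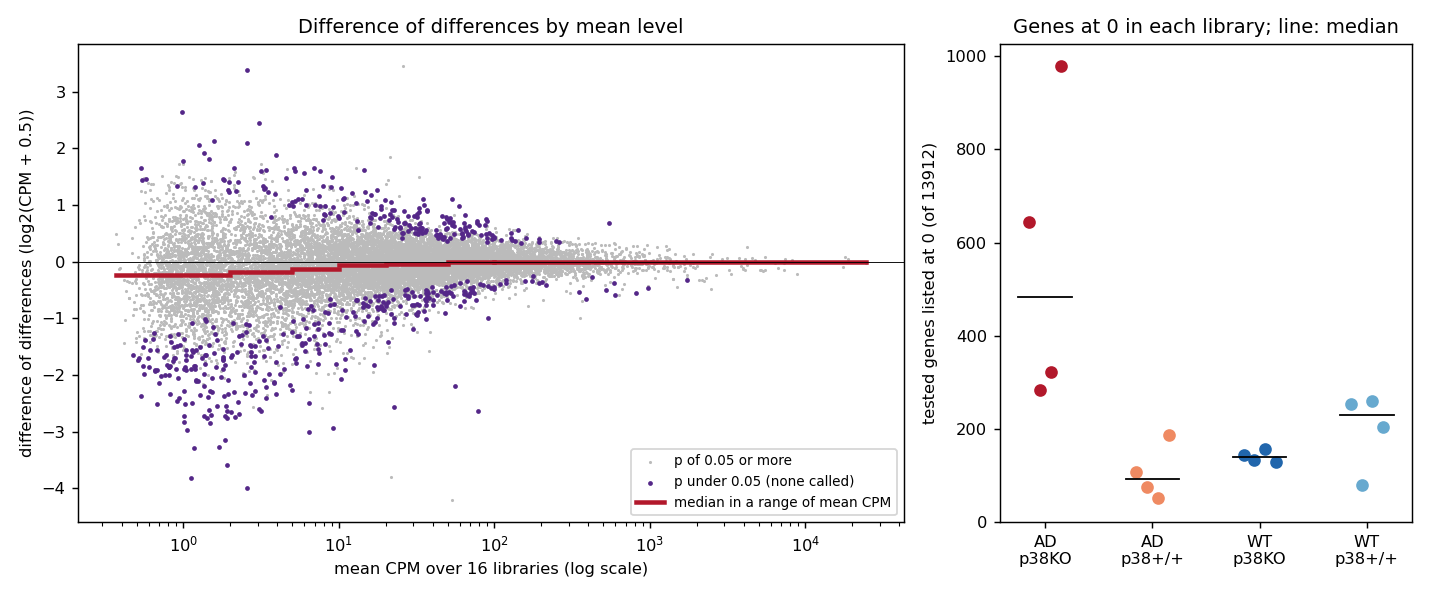
Left, difference of differences (log2(CPM + 0.5)) against mean CPM on a log axis, with the median in each range of mean CPM in red; the median is -0.23 under 2 CPM and -0.01 at 100 CPM and above. Right, the number of tested genes listed at 0 in each library, 283 to 980 in AD p38KO mice and at most 260 in any other library.

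The negative estimates were concentrated in genes with few reads. Under a mean of 2 CPM, the median difference of differences was -0.23, 64.5% of the estimates were negative, and of the 130 genes with an unadjusted p under 0.05, 86.2% were negative. Between 2 and 5 CPM the median was -0.18, and between 5 and 10 CPM it was -0.12. From 50 to 100 CPM it was -0.0014, and from 100 CPM it was -0.01. Among genes with a mean of at least 10 CPM, 138 were negative and 144 positive at that p.

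The gene with the smallest p was Pcdhgc3, a clustered protocadherin, which is a cell adhesion molecule of neurons and glia. It was listed at 0 in all 4 AD p38KO mice, against 3.4, 3.4, 3.06 and 1.19 CPM in AD p38+/+ mice. In WT p38KO mice it was 0.886, 2.45, 1.12 and 0.817 CPM, against 0, 0, 0.117 and 1.58 CPM in WT p38+/+ mice. The AD groups did not overlap and the WT groups did. The difference of differences was -3.82 ± 0.65 (SE, limma, adjusted p = 0.238). Its size rests on the CPM added before the log, with -7.13 at 0.1 CPM and -2.64 at 1 CPM. Without WT p38+/+ mouse 4 it passed the threshold, at -4.31 (adjusted p = 0.00849, limma), the only call in 16 fits that each left out 1 library. Gamma protocadherins share their last exons, so reads from other members of the cluster could have been assigned to it.

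Cntn1, a neuronal and glial adhesion molecule on chromosome 15 (mm10, 92051165 to 92341968), had the next smallest p. It was 0, 0.716, 0 and 0 CPM in AD p38KO mice, against 1.74, 1.93, 4.08 and 1.42 CPM in AD p38+/+ mice. It was 3.09, 1.73, 0.504 and 1.72 CPM in WT p38KO mice, against 0.217, 0.791, 0.380 and 0.257 CPM in WT p38+/+ mice. The AD groups did not overlap, and the difference of differences was -3.29 ± 0.63 (SE, limma, adjusted p = 0.418). Adamtsl4, a secreted matrix protein, was 0, 0.0796, 0 and 0 CPM in AD p38KO and 1.31 to 4.82 CPM in AD p38+/+ mice. In WT mice it was 2.66 to 4.84 CPM with p38KO and 0 to 3.55 CPM without, and its difference of differences was -3.59 ± 0.72 (SE).

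Other genes at this end of the ranking also had low values in AD p38KO mice. Slc6a11, an astrocyte GABA transporter, was listed at 0 in 3 AD p38KO mice and at 1.01 CPM in mouse 3, against 1.13 to 3.93 CPM in AD p38+/+ mice, with a difference of differences of -2.97. Bcan, a brain proteoglycan made by glia, was at 0 in 3 AD p38KO mice and at 0.301 CPM in mouse 1, against 1.13 to 2.67 CPM in AD p38+/+ mice (-2.41). Traip, a ubiquitin ligase of the DNA damage response, was at most 0.159 CPM in AD p38KO mice, against 0.780 to 1.4 CPM in AD p38+/+ mice (-2.46). In WT mice the groups of Slc6a11, Bcan and Traip overlapped. Flt3, a receptor kinase of blood progenitors and dendritic cells, was 0 to 1.11 CPM in AD p38KO, 0.915 to 2.54 CPM in AD p38+/+, 0.791 to 2.44 CPM in WT p38KO and 0 to 0.852 CPM in WT p38+/+ mice (-2.83). The groups of Flt3 overlapped in both pairs, and its p38KO effect was -1.3 in AD and 1.53 in WT mice. Most values of these genes in AD p38KO mice lay under the level of 3 reads, and the exceptions were Flt3 in mice 2 and 3, Slc6a11 in mouse 3 and Bcan in mouse 1.

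Markers of other cell types were read across the same libraries. Among the markers fixed for astrocytes, 0 of 9 tested had an unadjusted p under 0.05 and the median difference of differences was -0.37. Their summed level was 165 to 202 CPM in AD p38KO, 165 to 235 CPM in AD p38+/+, 176 to 289 CPM in WT p38KO and 181 to 259 CPM in WT p38+/+ mice. Neuronal markers summed to at most 13.5 CPM in any library, and 0 of 3 tested had such a p. For oligodendrocytes and their precursors it was 0 of 7, for endothelial and mural cells 0 of 3, for monocytes and granulocytes 0 of 3 and for red blood cells 0 of 3. No lymphocyte marker passed the filter. In bulk samples, fewer cells of a type and less RNA per cell cannot be told apart.

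2 genes among the 12 most negative, Clic6 and Igfbp2, are known from the epithelium of the choroid plexus, which secretes the cerebrospinal fluid. Clic6, a chloride channel family member, was 0, 0, 0.155 and 0 CPM in AD p38KO mice, against 1.54, 6.34, 5.77 and 0 CPM in AD p38+/+ mice. It was 8.46, 6.14, 2.09 and 5.16 CPM in WT p38KO mice, against 2.68, 0.365, 0.683 and 1.67 CPM in WT p38+/+ mice, a difference of differences of -4.0 ± 0.94 (SE). Igfbp2, a binding protein of insulin-like growth factors, was 0 to 1.35 CPM in AD p38KO, 2.55 to 5.0 CPM in AD p38+/+, 1.22 to 3.82 CPM in WT p38KO and 0.578 to 2.56 CPM in WT p38+/+ mice (-2.75).

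After these values were seen, 14 markers of choroid plexus epithelium were read in the same libraries, as a description. Ttr, the thyroid hormone carrier that this epithelium makes in bulk, was 54.7, 85.5, 12.8 and 55 CPM in AD p38KO mice, against 131, 201, 106.6 and 36.4 CPM in AD p38+/+ mice. It was 222, 58.1, 36.5 and 104.5 CPM in WT p38KO mice, against 50.1, 72.5, 17.5 and 15 CPM in WT p38+/+ mice. The groups overlapped in both pairs, and the difference of differences was -2.63 ± 0.93 (SE). Enpp2, the secreted lipase autotaxin, was 27.1 to 71.6 CPM in AD p38KO, 30.6 to 87.1 CPM in AD p38+/+, 22.7 to 144 CPM in WT p38KO and 6.88 to 60.5 CPM in WT p38+/+ mice (-2.19). Sostdc1, a secreted antagonist of BMP and Wnt signals, stood at -2.62, and Kl, which encodes Klotho, at -2.26. Estimates of the 10 markers that passed the filter ran from -4.0 to -0.75. The list was drawn up because Clic6, Igfbp2, Ttr and Enpp2 were negative, and 57.4% of all genes tested were, so this is no separate evidence. The 14 markers summed to 52.6 to 182 CPM in AD p38KO, 86.7 to 322 CPM in AD p38+/+, 79.9 to 430 CPM in WT p38KO and 33.5 to 157 CPM in WT p38+/+ mice, so both pairs overlapped. The part of this tissue in the other results was not tested.

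Only 2 of the 12 most negative genes had a mean above 5 CPM, and these differed from the rest in that no library was at 0. Dclre1b, the nuclease Apollo that protects telomere ends (chromosome 3, 103800605 to 103809445), was 14.6, 27.3, 26.5 and 13.2 CPM in AD p38KO mice, against 32, 35.5, 32.5 and 39.2 CPM in AD p38+/+ mice. It was 34.5, 35, 44.3 and 33 CPM in WT p38KO mice, against 27.7, 31, 28.6 and 26.1 CPM in WT p38+/+ mice. All AD p38KO mice were thus below all AD p38+/+ mice, and all WT p38KO mice above all WT p38+/+ mice. The difference of differences was -1.19 ± 0.29 (SE, limma, adjusted p = 0.763), and -0.72 without AD p38KO mice 1 and 4, the lowest of their group.

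Mpv17l, an inner membrane protein related to peroxisomes and mitochondria (chromosome 16, 13903161 to 13949620), was 4.14, 2.79, 2.41 and 2.44 CPM in AD p38KO mice, against 7.76, 6.69, 8.72 and 7.38 CPM in AD p38+/+ mice. It was 6.83, 13.1, 5.9 and 8.81 CPM in WT p38KO mice, against 3.19, 8.64, 6.07 and 4.88 CPM in WT p38+/+ mice. The AD groups did not overlap and the WT groups did, and the difference of differences was -1.84 ± 0.43 (SE, limma, adjusted p = 0.735). Gm20559, a predicted gene, was 0 to 0.233 CPM in AD p38KO, 0.414 to 1.27 CPM in AD p38+/+, 1.22 to 2.03 CPM in WT p38KO and 0.410 to 0.835 CPM in WT p38+/+ mice (-2.0).

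Genes in which p38KO and p38+/+ mice were fully separated in opposite directions in the 2 backgrounds were few. AD p38KO mice were all below AD p38+/+ mice in 281 genes (2.02%) and all above in 184 (1.32%), and WT p38KO mice were all below WT p38+/+ mice in 183 genes (1.32%) and all above in 195 (1.4%). AD p38KO mice were all below AD p38+/+ mice while WT p38KO mice were all above WT p38+/+ mice in 3 of 13912 genes (0.0216%), which were Dclre1b, Gm20559 and Ermap. The opposite crossing occurred in 1 gene (0.00719%), Mrps18a, a protein of the mitochondrial ribosome. Ermap, an erythroid membrane protein, and Mrps18a were named after their values were seen. Ermap was 3.38 to 5.73 CPM in AD p38KO, 6.47 to 12.6 CPM in AD p38+/+, 9.44 to 15.8 CPM in WT p38KO and 6.52 to 9.43 CPM in WT p38+/+ mice. Mrps18a was 25.8 to 37.2 CPM in AD p38KO, 19.1 to 24 CPM in AD p38+/+, 19.9 to 21.97 CPM in WT p38KO and 22.09 to 28.8 CPM in WT p38+/+ mice. Separation in the same direction in both backgrounds was seen in 11 genes (0.0791%) with p38KO lower and in 3 genes (0.0216%) with p38KO higher.

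**Figure D3:**
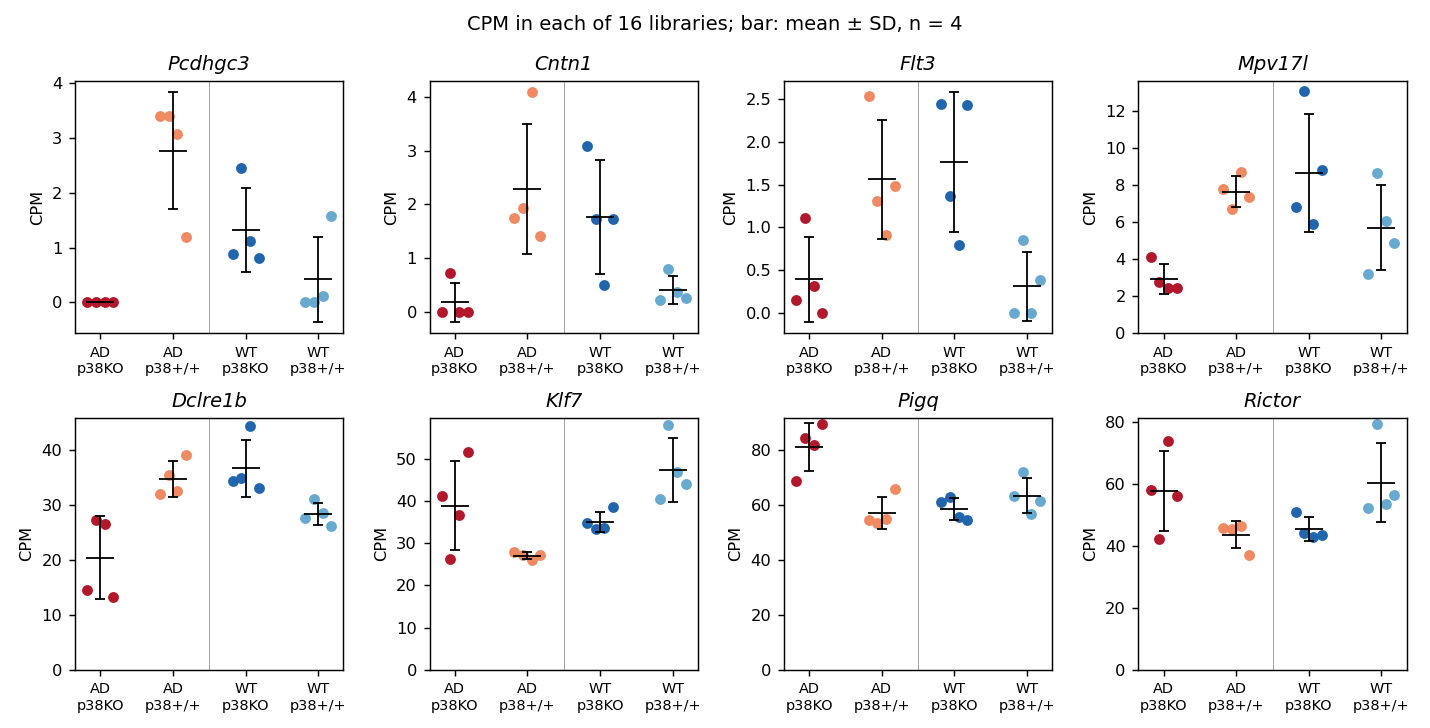
CPM of 8 genes in each of the 16 libraries, with the mean and SD of the 4 mice of a group. Pcdhgc3 and Cntn1 are at or near 0 in AD p38KO mice, Dclre1b is the gene in which both pairs separate in opposite directions, and in Klf7 and Rictor the WT p38KO mice lie below the WT p38+/+ mice while the AD groups overlap.

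On the positive side, 8 of the 12 genes with the smallest p had a mean of at least 10 CPM. Klf7, a zinc finger transcription factor on chromosome 1 (64029447 to 64122283), was 41.1, 26.2, 36.7 and 51.6 CPM in AD p38KO mice, against 27.8, 27.2, 26 and 27.2 CPM in AD p38+/+ mice. It was 34.7, 33.4, 33.7 and 38.5 CPM in WT p38KO mice, against 40.4, 58.1, 46.9 and 44 CPM in WT p38+/+ mice. AD p38KO mouse 2 lay within the range of its controls, and the WT groups did not overlap. The difference of differences was 0.89 ± 0.24 (SE, 95% interval 0.38 to 1.4), and 0.61 without AD p38KO mice 1 and 4.

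Pigq, a subunit of the enzyme that starts the synthesis of GPI anchors, was 68.8, 84.3, 81.9 and 89.4 CPM in AD p38KO mice, against 54.4, 53.5, 54.8 and 66 CPM in AD p38+/+ mice. It was 61.2, 62.8, 55.7 and 54.4 CPM in WT p38KO mice, against 63.3, 72.2, 56.7 and 61.6 CPM in WT p38+/+ mice. The AD groups did not overlap, the WT groups did, and the difference of differences was 0.61 ± 0.17 (SE, 95% interval 0.26 to 0.97). Rps4l, annotated as a transcribed processed pseudogene and related in sequence to Rps4x, with which reads could be shared, was 41.9 to 62.8 CPM in AD p38KO, 22.6 to 35.2 CPM in AD p38+/+, 25.6 to 37.7 CPM in WT p38KO and 30.2 to 42.2 CPM in WT p38+/+ mice. Its difference of differences was 0.92 ± 0.26 (SE). Pacs2, a sorting protein at contacts of endoplasmic reticulum and mitochondria, was 56.2 to 69.5 CPM in AD p38KO mice, above the 38.3 to 48.7 CPM in AD p38+/+ mice, and its WT groups overlapped (0.71 ± 0.22, SE). In these 3 genes the AD p38KO group had the highest mean.

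In a further set WT p38+/+ had the highest mean. Gxylt1, a xylosyltransferase that extends sugars on Notch, was 45.7 to 49.7 CPM in AD p38KO and 35.8 to 50.1 CPM in AD p38+/+ mice, and 40.5 to 48 CPM in WT p38KO, against 49.7 to 89 CPM in WT p38+/+ mice (0.75 ± 0.22, SE). Cd274, which encodes the immune checkpoint ligand PD-L1, was 25.9, 24.7, 24 and 15.7 CPM in AD p38KO mice, against 22.9, 24.7, 19.5 and 12.5 CPM in AD p38+/+ mice. It was 11.4, 12.6, 15.7 and 11.4 CPM in WT p38KO mice, against 23.1, 30.3, 25.6 and 17.9 CPM in WT p38+/+ mice. The WT groups did not overlap, and the difference of differences of Cd274 was 1.08 ± 0.33 (SE, limma, unadjusted p = 0.00404, adjusted p = 1). Rictor, the defining subunit of the kinase complex mTORC2, was 42.3 to 73.8 CPM in AD p38KO, 37 to 46.4 CPM in AD p38+/+, 43 to 51 CPM in WT p38KO and 52.1 to 79.2 CPM in WT p38+/+ mice (0.76 ± 0.23, SE). Of the remaining positive genes, Gm48621 (2.64), Gm42798 (2.09) and Gm32687 (1.3) are predicted genes, and Tmem8b (1.61) and Ccdc157 (1.65) had means under 10 CPM.

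The targeted and driver genes had near-equal p38KO effects in both backgrounds. The Mapk14 transcript ENSMUST00000062694 fell with p38KO in both backgrounds, by a log2 effect of -6.73 in AD and -6.80 in WT mice. It averaged 0.128 ± 0.083 CPM in AD p38KO mice, against 65.7 ± 5.38 CPM in AD p38+/+ mice (SD, n = 4 each). Its difference of differences was 0.07 ± 0.35 (SE). Reads over the whole gene overlapped between the groups of both pairs, at 142 to 166 CPM in AD p38KO, 152 to 173 CPM in AD p38+/+, 138 to 169 CPM in WT p38KO and 162 to 210 CPM in WT p38+/+ mice, with a difference of differences of 0.07 ± 0.15 (SE, 95% interval -0.23 to 0.38). Cx3cr1, the fractalkine receptor whose gene holds Cre, was 2978 to 3609 CPM in AD p38KO, 5639 to 7429 CPM in AD p38+/+, 3553 to 4061 CPM in WT p38KO and 7842 to 9296 CPM in WT p38+/+ mice. The p38KO groups lay below their controls without overlap in both backgrounds, with a log2 effect of -1.08 in AD and -1.17 in WT mice, a difference of 0.09 ± 0.13 (SE, 95% interval -0.19 to 0.37). App stood at -0.2 ± 0.14 (SE).

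Prnp, whose promoter drives the disease transgenes, was 12.1, 7.48, 1.09 and 9.07 CPM in AD p38KO mice, against 19.7, 14.8, 11 and 10.4 CPM in AD p38+/+ mice. It was 5.21, 6.5, 1.8 and 3.73 CPM in WT p38KO mice, against 2.75, 3.96, 4.18 and 2.18 CPM in WT p38+/+ mice. Both pairs overlapped, and the difference of differences was -1.44 ± 0.72 (SE, 95% interval -2.96 to 0.08). It was -0.78 without AD p38KO mouse 3, the lowest of its group, and -2.25 without AD p38KO mice 1 and 4.

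The genes that responded to the disease transgenes were next compared between the p38 genotypes. The estimate of the APP/PS1 main effect, averaged over both p38 genotypes, is independent of that of the difference of differences with 4 mice in each group. The genes it called were thus not chosen by the size of their interaction. Both tests share 1 estimate of a gene's spread, so the call favours genes with a small spread, which bears on the counts and intervals below. It called 143 of 13912 genes (1.03%) by limma, 129 higher (0.927%) and 14 lower (0.101%) with APP/PS1. None of the 143 was called for the difference of differences, and 3 (2.1%) had an unadjusted p under 0.05, against 3.92% of all genes. Over the genes that each fit itself called, that number was 14 without AD p38KO mouse 3, 9 without AD p38KO mouse 2 or mouse 4, and 2 without AD p38+/+ mouse 2. In these fits the groups differ in size, so the main effect and the difference of differences are not independent. Among the 129 that rose with APP/PS1, the median effect was 0.95 in p38KO and 1.03 in p38+/+ mice on the log2 scale. For 74 of the 143 genes the 95% interval of the difference lay within 1 log2 unit of 0, and the widest estimates were -1.28 and 1.28.

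**Figure D4:**
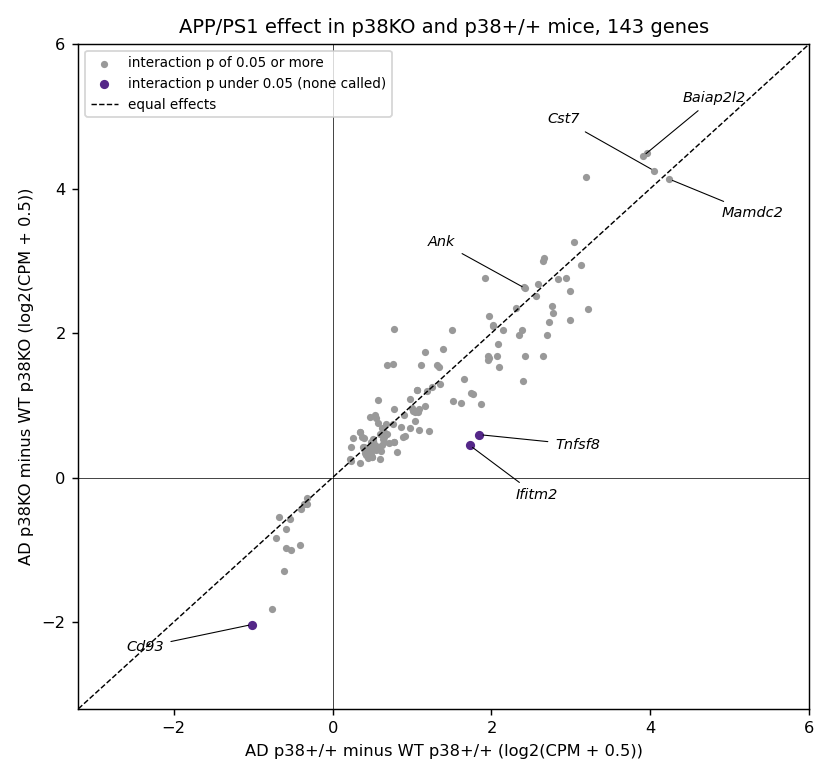
Effect of APP/PS1 in p38KO mice (vertical axis) and in p38+/+ mice (horizontal axis) on the log2(CPM + 0.5) scale for the 143 genes called for the APP/PS1 main effect. The genes were chosen by the average of both axes, which all but fixes that the signs agree. The 3 purple genes (Ifitm2, Tnfsf8 and Cd93) have an unadjusted interaction p under 0.05.

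Cst7, an inhibitor of lysosomal cathepsins and a leading marker of disease-associated microglia, was 290, 246, 158 and 185 CPM in AD p38KO mice, against 395, 197, 135 and 122 CPM in AD p38+/+ mice. It was 8.74 to 13.7 CPM in WT p38KO and 7.61 to 12.6 CPM in WT p38+/+ mice. Its APP/PS1 effect was 4.24 in p38KO and 4.05 in p38+/+ mice on the log2 scale, a difference of 0.19 ± 0.42 (SE, 95% interval -0.69 to 1.07). Ank, a pyrophosphate transporter, was 313 to 357 CPM in AD p38KO and 194 to 608 CPM in AD p38+/+ mice, and its APP/PS1 effect was 2.62 in p38KO and 2.43 in p38+/+ mice. Baiap2l2, an adaptor of the membrane skeleton, had effects of 4.45 in p38KO and 3.91 in p38+/+ mice, and Mamdc2, a matrix protein, of 4.13 and 4.24. The chemokine gene Ccl6 had 1.36 in p38KO and 1.65 in p38+/+ mice. In the male libraries alone the difference was 0.72 for Cst7, 0.53 for Ank, 0.33 for Baiap2l2, -0.3 for Mamdc2 and -0.26 for Ccl6.

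Of the list of disease-associated microglia genes, 44 of 46 were tested and 0 were called. Only H2-D1 had an unadjusted p under 0.05 (1 gene, 2.27%, against 3.92% of all genes), and 32 of the 44 estimates were negative, against 57.4% of all genes. The median difference of differences was -0.11, beside -0.06 for all genes, and 21 of the 44 intervals lay within 1 log2 unit of 0. Axl, a receptor kinase that binds dying cells and amyloid, was 315, 288, 265 and 174 CPM in AD p38KO mice, against 499, 207, 203 and 168 CPM in AD p38+/+ mice, and 39.1 to 82.5 CPM in WT p38KO, against 25.1 to 62.8 CPM in WT p38+/+ mice (-0.5 ± 0.46, SE). Apoe, the lipid carrier, was 658 to 1165 CPM in AD p38KO, 511 to 1613 CPM in AD p38+/+, 316 to 626 CPM in WT p38KO and 141 to 671 CPM in WT p38+/+ mice. Its difference of differences was -0.59 ± 0.55 (SE, 95% interval -1.73 to 0.56), and in the male libraries alone the estimates of Axl and Apoe were 0.07 and 0.14. The cathepsin Ctsd stood at 0.05 ± 0.14, Ctsb at -0.07 ± 0.14 and the lysozyme Lyz2 at -0.79 ± 0.39 (SE).

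In the 3 APP/PS1 genes with an unadjusted interaction p under 0.05 the APP/PS1 effect was the lower one in p38KO mice, and in Cd93 it was negative in both. Ifitm2, an interferon-induced membrane protein that blocks virus entry, was 3.57 to 5.64 CPM in AD p38KO and 5.13 to 12.4 CPM in AD p38+/+ mice, and 2.01 to 4.72 CPM in WT p38KO and 1.44 to 2.31 CPM in WT p38+/+ mice. Its APP/PS1 effect was 0.45 in p38KO and 1.73 in p38+/+ mice, a difference of -1.28 ± 0.44 (SE). Tnfsf8, which encodes the ligand of CD30, was 8.08 to 20.1 CPM in AD p38KO, 5.39 to 20.8 CPM in AD p38+/+, 5.37 to 13.7 CPM in WT p38KO and 1.35 to 3.41 CPM in WT p38+/+ mice. The WT groups did not overlap, and the difference of differences of Tnfsf8 was -1.26 ± 0.57 (SE). Cd93, a surface lectin of endothelium and myeloid cells, was at most 0.135 CPM in AD p38KO mice, against 0.496 to 1.52 CPM in AD p38+/+ mice, and 1.15 to 2.36 CPM in WT p38KO, against 1.9 to 4.06 CPM in WT p38+/+ mice (-1.02 ± 0.47, SE). The estimate of Cd93 rested on the scale at these low values: it was -2.41 with 0.1 CPM added, -0.58 with 1 CPM added and -0.23 under quantile normalization, and in the last 2 its unadjusted p was 0.127 and 0.687 by limma. Acaca, the first enzyme of fatty acid synthesis, had the largest positive estimate of the 143, 1.28 ± 0.61 (SE, 95% interval -0.01 to 2.57).

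Homeostatic microglia genes are those that plaque contact lowers. None of the 36 had an unadjusted p under 0.05, the median difference of differences was -0.0011, and 33 of the 36 intervals lay within 1 log2 unit of 0. Among the 10 genes that define microglia and macrophages, all 10 intervals did. Csf1r, the growth factor receptor that microglia need to survive, was 17112 to 17773 CPM in AD p38KO, 15556 to 18432 CPM in AD p38+/+, 16196 to 18745 CPM in WT p38KO and 17818 to 20655 CPM in WT p38+/+ mice (0.08 ± 0.11, SE). Cst3, which encodes cystatin C, stood at -0.02 ± 0.18 (SE).

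The p38KO main effect called 11 genes (0.0791%) by limma, 1 higher (0.00719%) and 10 lower (0.0719%). None was called for the difference of differences, and 3 (27.3%, against 3.92% of all genes) had an unadjusted p under 0.05. Over the genes that each fit itself called, that number was 6 without AD p38KO mouse 3, 5 without WT p38KO mouse 4 and 0 without WT p38KO mouse 2. Lgi4, a secreted protein known from myelination of peripheral nerve, was 27.7, 18.3, 18 and 23.1 CPM in AD p38KO mice, against 1.8, 4.96, 2.91 and 1.99 CPM in AD p38+/+ mice. It was 20.8, 8.45, 24.9 and 18.9 CPM in WT p38KO mice, against 8.62, 4.99, 4.78 and 4.11 CPM in WT p38+/+ mice. The 2 p38KO groups overlapped, the p38KO effect was 2.77 in AD and 1.57 in WT mice, and the difference was 1.21 ± 0.48 (SE). It was 0.37 in the male libraries alone, and WT p38KO mouse 2 and WT p38+/+ mouse 1, whose values overlapped, were both labelled female.

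Mid1, a ubiquitin ligase on chromosome X (169685199 to 170005737), was 16.2, 13.2, 12.4 and 16.3 CPM in AD p38KO mice, against 64.5, 47.9, 65.4 and 49.5 CPM in AD p38+/+ mice. It was 25.1, 47.2, 25.3 and 11.5 CPM in WT p38KO mice, against 53.6, 54.2, 39.1 and 40.3 CPM in WT p38+/+ mice. The AD groups were separated and the WT groups overlapped, and the difference of differences was -1.01 ± 0.41 (SE). H2ac6, a histone H2A gene with near-identical copies among which reads could be split, was 0.695, 4.77, 4.63 and 0.0699 CPM in AD p38KO mice, against 19.3 to 26.8 CPM in AD p38+/+ mice, and 7.4 to 13.4 CPM in WT p38KO, against 19.3 to 44.3 CPM in WT p38+/+ mice. Its difference of differences was -1.82 ± 0.75 (SE), and -0.49 without AD p38KO mice 1 and 4, which held the 2 lowest values. H4f16, a histone H4 gene, stood at -0.86 ± 0.56 and the predicted gene Gm20628 at -0.86 ± 0.57 (SE).

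**Figure D5:**
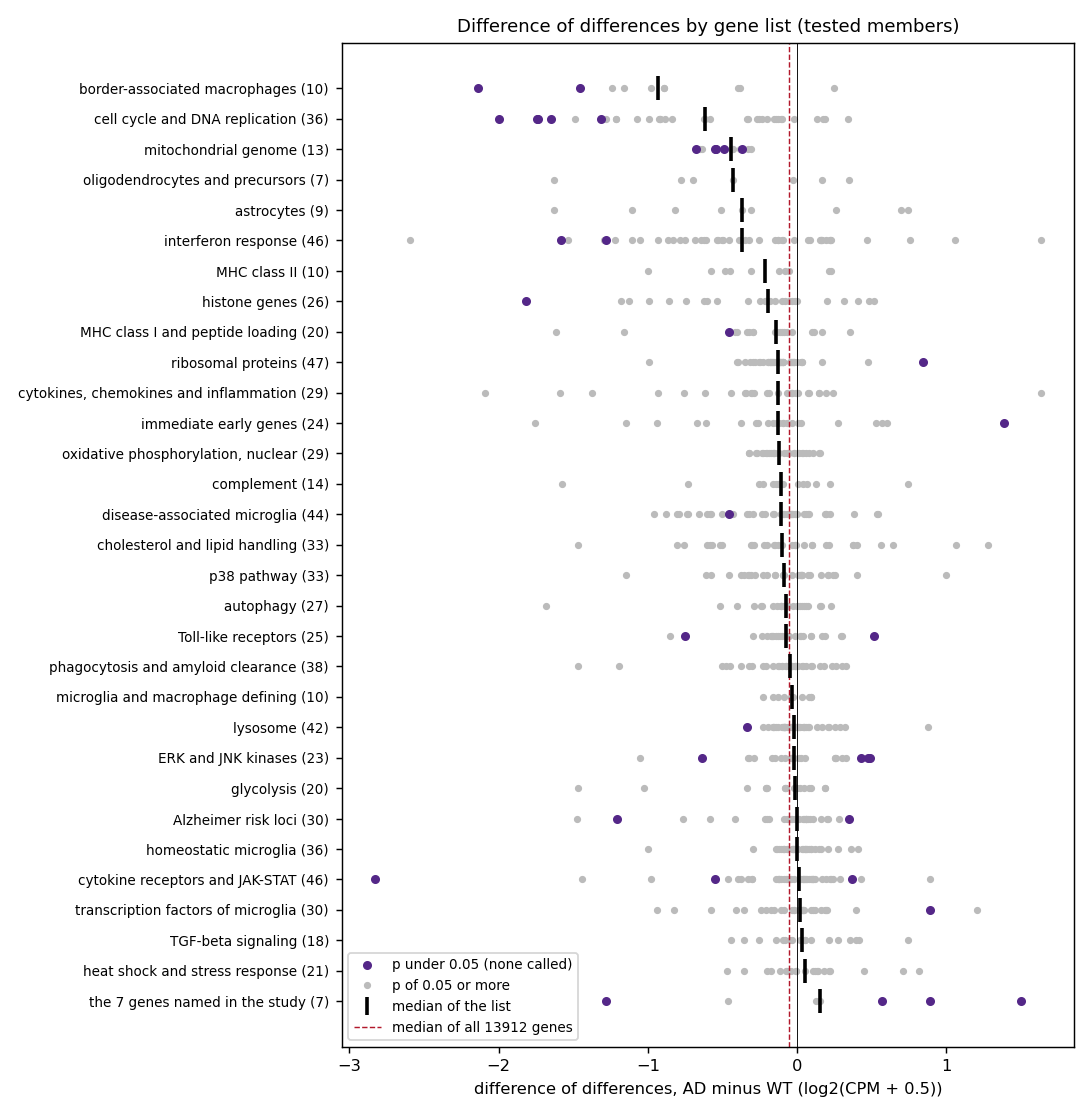
Difference of differences (log2(CPM + 0.5), AD minus WT) of the tested members of each gene list of 5 or more, one row per list with the number tested in brackets. Black bars are list medians, from -0.94 for border-associated macrophage markers to 0.15 for the 7 genes named in the study, and the dashed line is the median of all genes, -0.06.

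The 13 protein-coding genes of the mitochondrial genome, which are transcribed together as long precursors, all had negative estimates. Of the 13, 5 had an unadjusted p under 0.05 (38.5%, against 2.46% of all genes in that direction) and 0 were called. The median difference of differences was -0.44, from a median p38KO effect of -0.15 in AD and 0.28 in WT mice. mt-Nd2, a subunit of respiratory complex I, was 373, 284, 309 and 410 CPM in AD p38KO mice, against 331, 314, 356 and 425 CPM in AD p38+/+ mice. It was 407, 440, 321 and 477 CPM in WT p38KO mice, against 375, 213, 305 and 292 CPM in WT p38+/+ mice. The groups overlapped in both pairs (-0.54 ± 0.23, SE). mt-Atp8 stood at -0.68 ± 0.28, mt-Nd4 at -0.49 ± 0.21, mt-Cytb at -0.44 ± 0.24 and mt-Co1 at -0.33 ± 0.27 (SE). The 13 estimates stayed negative in all 30 alternatives, but the number under 0.05 was 0 without WT p38+/+ mouse 2, 0 without WT p38KO mouse 2 and 0 without AD p38KO mouse 2. It was 1 without AD p38+/+ mouse 4 or WT p38KO mouse 4, and 8 without WT p38KO mouse 3. WT p38+/+ mouse 2 had the lowest values of mt-Nd2 and mt-Co1 of all libraries, and the members share these libraries. The nuclear genes of oxidative phosphorylation had a median of -0.12, with 0 of 29 under 0.05.

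Genes of cell division were also mostly on the negative side. Of 36 tested, 32 estimates were negative, against 57.4% of all genes, and 5 had an unadjusted p under 0.05 (13.9%, against 2.46% of all genes in that direction), with a median of -0.62. These 5 had few reads. Ube2c, a ubiquitin-conjugating enzyme of mitosis, was 0.827, 0.318, 1.71 and 1.42 CPM in AD p38KO mice, against 1.67, 2.07, 1.06 and 4.26 CPM in AD p38+/+ mice. It was 4.8, 4.12, 1.3 and 1.15 CPM in WT p38KO mice, against 0.580, 0.852, 1.37 and 1.41 CPM in WT p38+/+ mice. Both pairs overlapped (-1.74 ± 0.66, SE). Aurkb, a kinase of chromosome segregation, stood at -2.0 ± 0.84, and Ccnd2, cyclin D2, at -1.65 ± 0.70 (SE). The members with the most reads were close to 0, Ccnd1 (cyclin D1) at -0.11 ± 0.26 and Mcm3, a subunit of the replicative helicase, at -0.2 ± 0.19 (SE). The list median was -0.26 with a filter of 5 CPM, -0.26 in the male libraries and -0.83 to -0.47 without single libraries. Of the 36 genes, 22 had a mean under 10 CPM, the range in which estimates of all genes were negative on average.

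Markers of border-associated macrophages, the macrophages of the meninges and vessels, had the lowest median of the lists with 5 or more tested genes, -0.94. Of 10 tested, 9 estimates were negative, against 57.4% of all genes, and 2 were negative with an unadjusted p under 0.05 (20%, against 2.46% of all genes). Genes with few reads leaned negative in general: of the 5238 genes with a mean under 10 CPM, 204 were negative at that p and 60 positive. Ms4a7, a membrane protein of these cells and of plaque-associated microglia, was 1.65, 2.47, 2.87 and 1.76 CPM in AD p38KO mice, against 11.4, 6.0, 4.5 and 3.19 CPM in AD p38+/+ mice. It was 4.23, 5.35, 2.73 and 5.8 CPM in WT p38KO mice, against 0.580, 3.29, 3.19 and 2.44 CPM in WT p38+/+ mice. The AD groups did not overlap, and the difference of differences was -2.13 ± 0.60 (SE). Pf4, a platelet-type chemokine made by these macrophages, stood at -1.46 ± 0.62, the mannose receptor gene Mrc1 at -0.98 ± 0.79 and F13a1, a transglutaminase, at -1.24 ± 0.73 (SE). The 10 markers summed to 35.9 to 85.1 CPM in AD p38KO, 38.9 to 166 CPM in AD p38+/+, 66.2 to 145 CPM in WT p38KO and 28.5 to 90.5 CPM in WT p38+/+ mice, so both pairs overlapped. None of the 10 markers was at 0 in a whole group. Without single libraries the median ran from -1.3 (without WT p38+/+ mouse 2) to -0.52 (without WT p38+/+ mouse 4). It was -0.56 without AD p38+/+ mouse 1. With a filter of 5 CPM it was -1.07, without AD p38KO mice 1 and 4 it was -0.31, and in the male libraries it was -0.28. The part of these cells in the results above was not tested.

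Interferon response genes had a median of -0.37, with 32 of 46 estimates negative, against 57.4% of all genes. Of the 46, 2 were under 0.05 (4.35%, against 3.92% of all genes). The median p38KO effect was 0.05 in AD and 0.45 in WT mice, and the group with the lowest summed level was WT p38+/+. The 46 genes summed to 1300 to 2310 CPM in AD p38KO, 1310 to 2160 CPM in AD p38+/+, 1030 to 1570 CPM in WT p38KO and 910 to 1190 CPM in WT p38+/+ mice. Ifit3b, an antiviral gene nearly identical to Ifit3, was 5.39, 5.29, 7.84 and 4.63 CPM in AD p38KO mice, against 12.1, 5.2, 6.44 and 6.43 CPM in AD p38+/+ mice. It was 5.84, 13.8, 5.53 and 5.3 CPM in WT p38KO mice, against 1.04, 6.09, 3.13 and 2.05 CPM in WT p38+/+ mice (-1.58 ± 0.58, SE). The estimate was -0.64 in the male libraries. Slfn5 ranged from 0.0677 CPM in AD p38KO mouse 4 to 23.1 CPM in AD p38KO mouse 2 (-2.59 ± 1.3, SE), while Lgals3bp, among the most abundant members by reads, stood at -0.25 ± 0.33 (SE). Without single libraries the list median ran from -0.54 (without AD p38KO mouse 1) to -0.06 (without WT p38KO mouse 2). It was -0.08 without AD p38+/+ mouse 1, -0.11 without AD p38KO mouse 4 and -0.05 in the male libraries.

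MHC class I molecules present peptides to CD8 T cells, and interferon raises them. Of 20 such genes, 16 estimates were negative, against 57.4% of all genes. The median was -0.14, beside -0.06 for all genes, and 1 gene had an unadjusted p under 0.05 (5%, against 3.92% of all genes). H2-D1, a classical class I heavy chain with close paralogs, was 1367, 1067, 808 and 1134 CPM in AD p38KO mice, against 1524, 988, 1053 and 1045 CPM in AD p38+/+ mice. It was 908, 1022, 959 and 858 CPM in WT p38KO mice, against 700, 799, 675 and 708 CPM in WT p38+/+ mice. The WT groups did not overlap and the AD groups did, and the difference of differences of H2-D1 was -0.46 ± 0.20 (SE, limma, unadjusted p = 0.0382, adjusted p = 1). B2m, the shared light chain, was likewise separated in WT mice only, at 1912 to 2358 CPM in WT p38KO and 1352 to 1906 CPM in WT p38+/+ mice (-0.34 ± 0.18, SE). H2-K1 stood at -0.42 ± 0.23 and H2-Q6, one of many similar Q-region genes, at -1.62 ± 0.81 (SE). The 10 class II genes had a median of -0.22 and 0 under 0.05.

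Inflammatory genes are the readout p38α is best known for. Of 29 cytokine, chemokine and inflammation genes, 0 had an unadjusted p under 0.05. In this list 21 estimates were negative, against 57.4% of all genes, with a median of -0.13, beside -0.06 for all genes. Tnf was 0.752, 2.55, 1.48 and 1.15 CPM in AD p38KO mice, against 5.69, 1.86, 5.14 and 3.69 CPM in AD p38+/+ mice. It was 2.2, 16.4, 1.15 and 4.94 CPM in WT p38KO mice, against 3.12, 5.35, 0 and 2.76 CPM in WT p38+/+ mice. The groups overlapped in both pairs and the spread was wide (-2.09 ± 1.0, SE, 95% interval -4.2 to 0.02). Il1b was 1.65 to 4.4 CPM in AD p38KO, 3.59 to 8.9 CPM in AD p38+/+, 0.860 to 5.13 CPM in WT p38KO and 0.257 to 2.2 CPM in WT p38+/+ mice (-1.37 ± 0.68, SE).

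The p38 pathway itself had 33 genes tested, 0 under 0.05 and a median of -0.09, with 22 intervals within 1 log2 unit of 0. Map3k7, which encodes the upstream kinase TAK1, was 44.7 to 62.9 CPM in AD p38KO mice, above the 31.3 to 41 CPM in AD p38+/+ mice, and 36.2 to 44.7 CPM in WT p38KO, against 32.1 to 47 CPM in WT p38+/+ mice (0.40 ± 0.22, SE). Tab3, a partner of TAK1, stood at 1.0 ± 0.52, and Map2k3, which activates p38α, at -0.31 ± 0.18 (SE). Without AD p38KO mice 1 and 4 the estimate was 0.18 for Map3k7 and 0.29 for Tab3, and Tab3 was at 0.47 in the male libraries. In the ERK and JNK arms of the same kinase family, 4 of 23 genes had an unadjusted p under 0.05 (17.4%, against 3.92% of all genes), 3 positive and 1 negative. Map2k5, the activator of ERK5, was 23.6, 25.7, 25 and 22.5 CPM in AD p38KO mice, against 28.2, 27.9, 29.7 and 34.9 CPM in AD p38+/+ mice. It was 26.8, 29.1, 37.6 and 35.3 CPM in WT p38KO mice, against 22, 28.9, 23.5 and 27.6 CPM in WT p38+/+ mice. Only the AD groups were separated (-0.63 ± 0.21, SE). Nras, a small GTPase that feeds ERK, stood at 0.48 ± 0.16, and Map3k1, an activator of JNK, was 63 to 79.4 CPM in AD p38KO, above the 44.1 to 52.6 CPM in AD p38+/+ mice (0.49 ± 0.22, SE).

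Receptors and signaling genes gave single members rather than shared shifts. Of 46 cytokine receptor and JAK-STAT genes, 3 had an unadjusted p under 0.05 (6.52%, against 3.92% of all genes) and the median was 0.02. Stat6, which carries the signal of interleukin 4, was 211 to 258 CPM in WT p38KO, below the 261 to 304 CPM in WT p38+/+ mice, and its AD groups overlapped (0.37 ± 0.15, SE). Csf2rb2, a receptor chain similar to Csf2rb, stood at -0.55 ± 0.25 (SE). Among 25 Toll-like receptor genes, Irf3, a transcription factor that induces interferon, was 37.4 to 38 CPM in AD p38KO mice, above the 25 to 33.8 CPM in AD p38+/+ mice, with overlapping WT groups (0.52 ± 0.20, SE). Tlr5, the flagellin receptor, was 12.2 to 30.3 CPM in AD p38KO mice, below the 31.2 to 36.8 CPM in AD p38+/+ mice (-0.75 ± 0.34, SE).

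The 38 genes of phagocytosis and amyloid clearance had 0 under 0.05, a median of -0.05 and 31 intervals within 1 log2 unit of 0. Mertk, a receptor for dying cells, was 877 to 1034 CPM in AD p38KO, 866 to 941 CPM in AD p38+/+, 835 to 1042 CPM in WT p38KO and 933 to 1361 CPM in WT p38+/+ mice (0.30 ± 0.16, SE). Msr1, the scavenger receptor that binds fibrillar amyloid, was 2.71 to 5.34 CPM in AD p38KO, 3.93 to 22.14 CPM in AD p38+/+, 1.65 to 3.66 CPM in WT p38KO and 0.607 to 4.93 CPM in WT p38+/+ mice (-1.19 ± 0.70, SE). For lysosomal genes the median was -0.02 and 41 of 42 intervals lay within 1 log2 unit. Autophagy (27 genes), glycolysis (20), cholesterol and lipid handling (33), complement (14), TGF-beta signaling (18) and heat shock (21) had 0 genes under 0.05, with medians between -0.11 and 0.06.

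At Alzheimer risk loci, 30 genes were tested and 2 had an unadjusted p under 0.05 (6.67%, against 3.92% of all genes). Clu, the secreted chaperone clusterin, was 7.14 to 10 CPM in AD p38KO, 8.16 to 24.1 CPM in AD p38+/+, 6.55 to 15.9 CPM in WT p38KO and 3.49 to 13.3 CPM in WT p38+/+ mice (-1.2 ± 0.53, SE). Blnk, an adaptor of immune receptors, stood at 0.35 ± 0.16 (SE). Of 47 ribosomal protein genes, 41 estimates were negative, against 57.4% of all genes, with a median of -0.13. Only 1 had an unadjusted p under 0.05 (2.13%, against 3.92% of all genes). This was Rpl3, with a positive estimate of 0.84 ± 0.39 (SE), which was 0.28 without AD p38KO mice 1 and 4. Without single libraries the ribosomal median ran from -0.21 (without WT p38+/+ mouse 3) to 0.03 (without WT p38+/+ mouse 2). It was -0.04 without AD p38+/+ mouse 1 and 0.01 in the male libraries. Among 24 immediate early genes, 17 estimates were negative, against 57.4% of all genes, with a median of -0.125. Only 1 had an unadjusted p under 0.05 (4.17%, against 3.92% of all genes). This was Dusp2, a phosphatase that inactivates MAP kinases, with a positive estimate of 1.39 ± 0.58 (SE). It was 1.51 to 4.94 CPM in AD p38KO mice, above the 0.414 to 1.14 CPM in AD p38+/+ mice. Without AD p38KO mice 1 and 4 the estimate of Dusp2 was 0.83.

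Of the 7 genes the study names, a list it chose on these same samples, 4 had an unadjusted p under 0.05, and since the list was chosen there the count is not independent evidence. Besides Klf7 and Ifitm2, these were N4bp2 and Cdc37l1. N4bp2, a DNA and RNA processing enzyme, was 8.5, 11.2, 11.1 and 9.14 CPM in AD p38KO mice, against 6.49, 4.28, 5.7 and 2.34 CPM in AD p38+/+ mice. It was 7.16 to 9.67 CPM in WT p38KO and 5.62 to 20.4 CPM in WT p38+/+ mice (1.5 ± 0.52, SE). Cdc37l1, a co-chaperone of Hsp90, stood at 0.57 ± 0.22 (SE). Csf2ra, the alpha chain of the GM-CSF receptor, was 56.6 to 71.6 CPM in AD p38KO mice, below the 75.1 to 95.1 CPM in AD p38+/+ mice, with overlapping WT groups (-0.46 ± 0.23, SE). Rtp4, an interferon-induced chaperone (0.15 ± 0.43, SE), and Tmc7, a channel-like protein (0.12 ± 0.26, SE), had estimates near 0. The p38KO effect on Tmc7 was -0.55 in AD and -0.67 in WT mice.

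At the level of transcripts, 34322 of 61144 were tested and 0 were called by limma, with a smallest adjusted p of 0.947 and 1462 (4.26%) at an unadjusted p under 0.05. Of these, 591 (1.72%) were positive and 871 (2.54%) negative. A protein-coding transcript of Abcf3 (ENSMUST00000232680), a translation-related ATPase, had the smallest p among positive ones (3.31 ± 0.69, SE), and was 1.67 to 3.38 CPM in AD p38KO and 0.0539 to 1.06 CPM in AD p38+/+ mice, and 0.0031 to 1.38 CPM in WT p38KO and 0.934 to 4.33 CPM in WT p38+/+ mice. A transcript of the zinc finger gene Zbtb6 (ENSMUST00000053098) had the smallest p overall (-2.08 ± 0.41, SE), with 6.91 to 14.4 CPM in AD p38KO and 14.2 to 19.9 CPM in AD p38+/+ mice, and 13.4 to 18.8 CPM in WT p38KO and 4.29 to 10.9 CPM in WT p38+/+ mice. Another Mapk14 transcript, ENSMUST00000114752, was higher with p38KO by 0.95 in AD and 0.76 in WT mice on the log2 scale. The difference was 0.19 ± 0.18 (SE, 95% interval -0.19 to 0.56). The whole gene did not rise with this transcript, at a log2 p38KO effect of -0.11 in AD and -0.18 in WT mice. How reads were split between the Mapk14 transcripts was not tested.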

How the data were processed

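RNA was sequenced from sorted microglia of 16 mice, 4 in each of 4 groups. Per the study and the submitters' notes, reads were aligned with STAR to mm10, and the authors quantified genes and transcripts in Partek Flow (10.0.22.0828 in the submitters' processing notes). The authors deposited values as CPM with 0.0001 added, which was subtracted first. Whole read counts could not be recovered from these CPM, so the count-based test of the study was not used here. Genes that reached 1 CPM in 4 or more libraries entered the test, on the log2(CPM + 0.5) scale. A single linear model over the 16 libraries was fitted in limma (version 3.58.1, R version 4.3.3) with a mean-variance trend, two-sided, with Benjamini-Hochberg adjustment over the 13912 genes, and a gene was called at an adjusted p under 0.05. Intervals are 95% intervals from that fit. A fold change on this scale understates the change of genes with few reads. Floors of 3 reads cover counting error only.

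The members, gene lists and alternatives were chosen with earlier results of these data known. Named genes were the 12 with the smallest p in each direction, the genes the study names and the targeted, driver and transgene genes, up to 3 members of each list by smallest p and 2 by highest CPM, and up to 6 and 4 genes of each main effect by smallest main-effect and smallest interaction p. Not all of these are given values, and some are not reported here. The choroid plexus markers were added after the data were seen, and Ermap, Mrps18a and those markers fall outside the rule. Each mouse gave 1 library. No 2 libraries held identical values, and their correlation within a group was 0.891 to 0.978. The alternatives were other pseudocounts, filters and scalings, array weights, covariates for sex and for 3 libraries whose description ends in S0, male libraries only, the animal number as a block, the transcript table summed per gene, each library left out, and AD p38KO mice 1 and 4 left out together because an earlier look at these data found them apart. TMM factors were computed from the CPM values. The fit was tested on simulated data. Figures were made with Python 3.11.15 and matplotlib 3.10.9.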

Additional observations from a re-analysis of the deposited data

Results flagged for a closer look

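In 28 of 404 groups of 4 mice (6.93%), over the genes given values above and 2 counts of genes per library, 1 mouse lay so far from the other 3 that its gap to the nearest passed Dixon's 95% critical value. Chance alone marks about 1 group in 20. In 7 of the 28 the other 3 mice were at 0, where any read at all passes the value, and without these it was 21 of 404 (5.2%). No cause was tested.

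AD p38KO mouse 1 stood apart from the others of its group with Bcan 0.301 CPM (others 0 CPM). AD p38KO mouse 2 stood apart from the others of its group with Adamtsl4 0.0796 CPM (others 0 CPM) and Cntn1 0.716 CPM (others 0 CPM). AD p38KO mouse 3 stood apart from the others of its group with Clic6 0.155 CPM (others 0 CPM) and Slc6a11 1.01 CPM (others 0 CPM). AD p38KO mouse 4 stood apart from the others of its group with Cd274 15.7 CPM (others 24 to 25.9 CPM) and Tmc7 13.1 CPM (others 20.6 to 21.7 CPM).

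AD p38+/+ mouse 1 stood apart from the others of its group with Adamtsl4 4.82 CPM (others 1.31 to 1.63 CPM), Baiap2l2 29.4 CPM (others 10 to 11.3 CPM), H2-D1 1520 CPM (others 988 to 1050 CPM), H2-K1 833 CPM (others 526 to 561 CPM) and Lgals3bp 696 CPM (others 411 to 423 CPM). AD p38+/+ mouse 3 stood apart from the others of its group with Mrps18a 19.1 CPM (others 23.3 to 24 CPM). AD p38+/+ mouse 4 stood apart from the others of its group with Enpp2 30.6 CPM (others 77.1 to 87.1 CPM), Pcdhgc3 1.19 CPM (others 3.06 to 3.4 CPM), Pigq 66 CPM (others 53.5 to 54.8 CPM) and Rictor 37 CPM (others 45.3 to 46.4 CPM).

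WT p38KO mouse 1 stood apart from the others of its group with Rictor 51 CPM (others 43 to 44.2 CPM). WT p38KO mouse 2 stood apart from the others of its group with Ccnd1 181 CPM (others at most 125 CPM) and Ifit3b 13.8 CPM (others 5.3 to 5.84 CPM). WT p38KO mouse 3 stood apart from the others of its group with Mamdc2 0.072 CPM (others 0 CPM). WT p38KO mouse 4 stood apart from the others of its group with H4f16 11 CPM (others 25.8 to 30.3 CPM) and Tmc7 24.6 CPM (others 28.5 to 29.3 CPM).

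WT p38+/+ mouse 1 stood apart from the others of its group with Cst7 7.61 CPM (others 12 to 12.6 CPM). WT p38+/+ mouse 2 stood apart from the others of its group with Mertk 1360 CPM (others 933 to 963 CPM) and Sostdc1 0.852 CPM (others 0 CPM). WT p38+/+ mouse 4 stood apart from the others of its group with Gm20628 1.93 CPM (others 6.06 to 7.41 CPM) and Pcdhgc3 1.58 CPM (others 0 to 0.117 CPM).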

How the results depend on the processing

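Genes called by limma for the difference of differences numbered 0 as reported (546 at an unadjusted p under 0.05), 2 with a pseudocount of 0.0001 CPM (Abca5 and Adgre5) and 4 with no filter on low values (Gm48529, Pcdhgc3, Proser2 and Rhobtb3), all with means under 2 CPM, and 0 to 1 when single libraries were left out. Genes at an unadjusted p under 0.05 numbered 875 with no filter, 363 with a filter of 5 CPM and 444 to 796 without single libraries. Transcripts called numbered 0 to 1 without single libraries, the 1 without WT p38KO mouse 4.

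Of the APP/PS1 genes, 3 had an unadjusted interaction p under 0.05, against 7 with a pseudocount of 0.1 CPM, 1 with 1 CPM, 5 with 0.0001 CPM, 5 with no filter, 5 with TMM scaling, 7 with quantile normalization, 8 with array weights, 6 with sex as a covariate, 5 with the covariate for the 3 libraries named S0, 7 with the replicate block, 10 without AD p38KO mice 1 and 4, and 2 to 14 without single libraries. Of the p38KO genes it was 3, against 1 with array weights, 0 in male libraries, 1 with the replicate block and sex together, 1 without AD p38KO mice 1 and 4, and 0 to 6 without single libraries. These counts are taken over the genes each setting called for the main effect, which differ between settings. Where the groups differ in size, the main effect and the difference of differences are not independent.

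Whether the animal number paired the mice was not settled. Of 24 pairs with the same number, 2 correlated above 0.1 in their deviations from the group means. The mean r was 0.0106 for the same number and -0.00333 for other numbers. Of 16 libraries, 9 correlated best with their own number, and no chance level was computed for that count. With the replicate block 0 genes were called and 548 had an unadjusted p under 0.05.

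None of the named genes was called as reported and many were named for a small p, so the counts that follow are a weak check. Of 2952 recomputed gene values, 2919 kept their direction and side of the threshold, whatever their change in size. Another 2 values, for Pcdhgc3, passed the threshold, and 31 values in 14 genes changed sign, all with a size of at most 0.29. In male libraries these were Cx3cr1 (-0.0175), Tmc7 (-0.059), Axl (0.0664), Apoe (0.138), Ctsd (-0.00275), Mcm3 (0.0163) and Csf1r (-0.00909). With array weights they were Cx3cr1 (-0.0271) and Ctsd (-0.000903), without AD p38KO mice 1 and 4 Ctsd (-0.019), with sex as a covariate Mamdc2 (0.087), and with the replicate block and sex Ccnd1 (0.00444). Without single libraries the ranges were -0.00192 to 0.124 for Mapk14, -0.046 to 0.419 for Rtp4, -0.0169 to 0.545 for Cst7, -0.0379 to 0.511 for Ank, -0.611 to 0.289 for Mamdc2, -0.0478 to 0.105 for Ctsd, -0.29 to 0.043 for Ccnd1 and -0.138 to 0.067 for Cst3. The cause of these changes was not tested. Of 1110 recomputed list medians, 24 moved by more than the spread between mice. Without AD p38KO mice 1 and 4 the estimate changed by over 1.5 times, or in sign, in 24 of the 99 genes. Below a mean of 10 CPM few intervals lay within 1 log2 unit of 0, and counting error was not separated from the spread between mice.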

Other observations

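The library of AD p38KO mouse 1 was labelled female and was listed at 0 for both Xist, the RNA that coats the inactive X chromosome, and Ddx3y, a gene of the Y chromosome. In every other library the higher of these genes was the one that its label implies.

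Red blood cell markers varied widely between mice of 1 group, and 0 of the 3 tested had an unadjusted p under 0.05 by limma. Their summed level was 0.0796 to 467 CPM in AD p38KO, 0.211 to 12.9 CPM in AD p38+/+, 0.867 to 364 CPM in WT p38KO and 0.0609 to 3.99 CPM in WT p38+/+ mice. The 26 histone genes tested had a median p38KO effect of -0.72 in AD and -0.66 in WT mice on the log2 scale, close to each other, with a median difference of differences of -0.20.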
